A study of Mus musculus with 4 samples.

Results

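The genes described here are 32 that a dividing cell needs to copy its DNA and to separate the copies, as measured in adult mouse tendon. The rule that chose them is a list of symbols and holds no measured value, though earlier results of these data were known when it was written. A level could be given for 30 of the 32, those with a probe set annotated with exactly 1 symbol, out of 22180 genes with such a probe set. Of the 30, 11 act at the start or during DNA replication (Ccne1, Pcna, Mcm2 to Mcm7, Tyms, Rrm1 and Rrm2). The other 19 act from S phase through mitosis, among them Mki67, Top2a, Ccna2, Ccnb2, Cdk1, Cdc20, Plk1, Bub1 and Foxm1. Mki67, Top2a and Ccna2 act from S phase on and were counted with mitosis by choice. Ccne2 had only a probe set shared with Ints8, and the level of Ccnb1 was not analysed here, so that it enters the promoter counts alone.

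The study set out to describe tendon of both sexes in its normal state. Achilles and plantaris tendons were taken from untreated wild-type C57Bl/6 mice of both sexes at 4 months of age, and 2 arrays were deposited per sex. By the labels, the 2 groups differ in sex and share strain, age, tissue and housing. The sample titles number the males before the females, so sex cannot be told apart from that order. Tenocytes are the labelled cell type, but the tendons of an animal were combined and homogenised whole, so all cells of the tissue contributed RNA. Whether the 2 arrays of a sex stand for 2 animals is not stated; the p-values therefore reflect the spread between these arrays alone, which may be technical.

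As background, a cell enters the cycle when cyclin-kinase pairs, cyclin E's among them, release E2F transcription factors from the retinoblastoma family of proteins. E2F then switches on the replication genes. The MCM proteins form the helicase ring that is loaded on replication origins, PCNA is the clamp that holds the polymerases on DNA, and ribonucleotide reductase and thymidylate synthase supply the nucleotides. The mitotic genes come on later, through B-Myb and FOXM1, and are held down in resting cells by the DREAM complex, which reaches many of them through a promoter element called CHR. Tenocytes of adult tendon are known to divide rarely, whereas several replication genes are also used in DNA repair outside the cycle.

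To show what the 2 classes carry in their promoters, which the choice of members did not use, windows of 300 bases (250 before and 50 after the annotated start) were taken from RefSeq, build GRCm38.p6. A window was found for 25 of the 32 members, 10 of the replication and 15 of the mitosis class, Ccnb1 included; Mcm7 had 2 windows and counted once. For 4 members the 200 bases before the start are printed 5′ to 3′ on the gene's strand. Mcm6 and Pcna are shown as the replication members of highest signal, and Mki67 and Cdc20 as the proliferation marker in general use and the mitosis member of highest mean. Capitals mark matches to E2F letters (TTTCCCGC, TTTCGCGC, TTTGCCGC or TTTGGCGC), CHR letters (TTTGAA or TTCGAA) and CCAAT, on either strand.
Mcm6, chr1:128359706-128359905, minus strand: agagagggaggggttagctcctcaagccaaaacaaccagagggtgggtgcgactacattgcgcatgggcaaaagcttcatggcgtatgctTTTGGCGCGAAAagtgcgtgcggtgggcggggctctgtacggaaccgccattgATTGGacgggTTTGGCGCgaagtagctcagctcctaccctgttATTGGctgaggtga
Pcna, chr2:132253181-132253380, minus strand: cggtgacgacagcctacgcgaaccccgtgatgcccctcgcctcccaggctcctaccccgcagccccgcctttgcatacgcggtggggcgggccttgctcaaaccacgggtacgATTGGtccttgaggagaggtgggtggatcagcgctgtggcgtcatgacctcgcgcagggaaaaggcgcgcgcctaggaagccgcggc
Mki67, chr7:135716380-135716579, minus strand: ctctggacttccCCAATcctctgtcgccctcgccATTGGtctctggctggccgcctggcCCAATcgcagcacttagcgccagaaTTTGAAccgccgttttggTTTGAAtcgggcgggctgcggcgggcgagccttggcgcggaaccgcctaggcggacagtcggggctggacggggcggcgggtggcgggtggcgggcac
Cdc20, chr4:118437344-118437543, minus strand: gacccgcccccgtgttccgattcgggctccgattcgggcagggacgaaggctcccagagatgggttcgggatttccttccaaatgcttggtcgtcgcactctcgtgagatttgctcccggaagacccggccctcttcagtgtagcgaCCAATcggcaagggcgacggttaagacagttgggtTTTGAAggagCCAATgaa

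The Mcm6 stretch holds E2F letters at -110 and -47 on the gene's strand and at -106 on the opposite strand, counted from the annotated start, and the first and last named of these overlap in 1 capital run. The Mki67 stretch holds TTTGAA at -116 and -98 and 3 CCAAT matches upstream of them. In Cdc20, CCAAT lies at -53 and at -8, with TTTGAA between them at -18. The Pcna stretch has 1 CCAAT match, on the opposite strand at -87, and no match to the other letters.

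Over the class, E2F letters were found in 4 of 10 replication windows (Mcm3, Mcm5, Mcm6 and Mcm7) and in 1 of 15 mitosis windows (Cdk1), beside 2.26% of all 32851 promoter windows of that length. CHR letters were found in 12 of 15 mitosis windows and in 2 of 10 replication windows (Mcm2 and Mcm7), beside 19.2% of all windows. CCAAT was found in 14 of 15 mitosis and 8 of 10 replication windows, beside 37.4% of all. These counts describe letters in a window; they are no measure of binding.

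**Figure D1:**
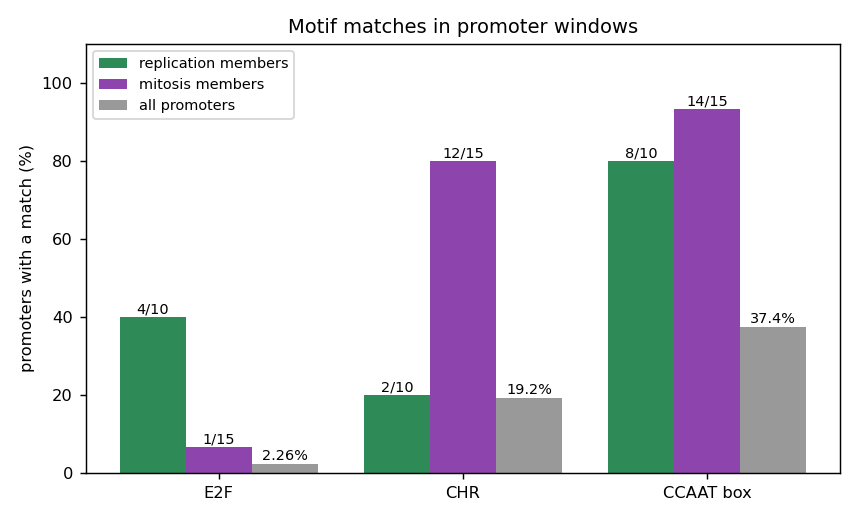
Share of promoter windows (%, vertical axis) with a match to E2F, CHR or CCAAT letters in replication members (green), mitosis members (purple) and all 32851 windows (grey), with counts above the bars. The E2F letters were found in 4 of 10 replication and 1 of 15 mitosis windows, and the CHR letters in 2 of 10 and 12 of 15.

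Values are log2 RMA values, a probe-set signal on a log2 scale in which 1 unit is a doubling. A low value on such an array is largely background, so 2 marks were used to read the levels. The first was the median of all 23521 probe sets with 1 symbol on each array, which lay between 2.439 and 2.466. The second was the 95th percentile of 1405 probe sets of olfactory and vomeronasal receptors, genes used by sensory neurons of the nose, which lay between 2.735 and 2.898. Probe sets differ in how strongly they bind, so the position of a member against these marks says whether signal stood out, and not how many transcripts one gene had beside another.

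Above the median on all 4 arrays were 4 of 11 replication members and 0 of 19 mitosis members, where 41.6% of all tested probe sets met the same mark. Below the median on all 4 arrays were 2 replication members and 14 mitosis members, where 41% of all probe sets lay. The replication share of 36.4% was near that of all probe sets, whereas the mitosis class had no member there. Above the receptor mark on all 4 arrays were 2 members, Pcna and Mcm6, beside 31.4% of all probe sets. The difference between the classes is given as counts, without a test. In whole tissue, fewer cycling cells, less RNA per cycling cell and weaker binding of the probe sets cannot be told apart.

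The median position among all probe sets was the 50.2nd percentile for replication members and the 28.7th percentile for mitosis members. All 30 members lay above the median of the receptor probe sets on all 4 arrays, as did 84.9% of all probe sets. Set on the receptor distribution, the mitosis members lay between the 62.3rd percentile (Ccna2) and the 91.7th percentile (Cdc20). The replication members lay between the 73.5th percentile (Mcm5) and the 99.8th percentile (Pcna). Members of both classes thus lay within the range of genes of the nose, in its upper part. Of the 30, only Pcna and Mcm6 exceeded the receptor mark on all 4 arrays.

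**Figure D2:**
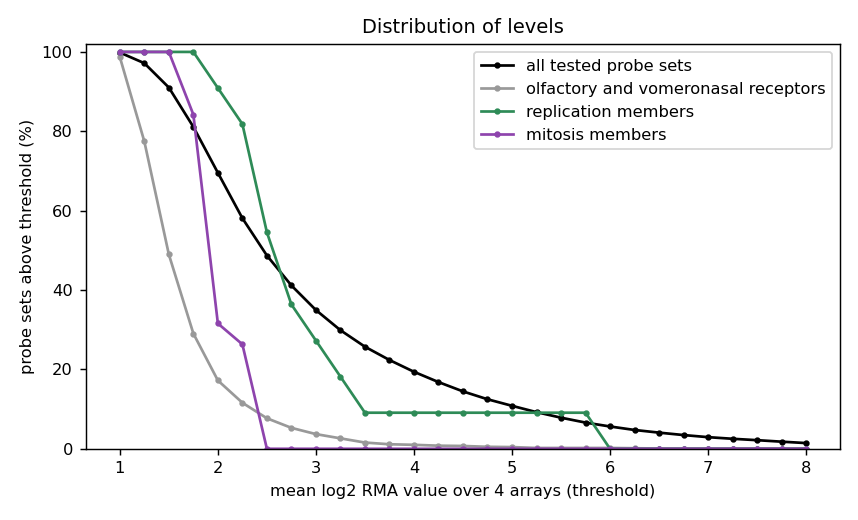
Share of probe sets (%, vertical axis) whose mean over the 4 arrays exceeds a given log2 RMA value (horizontal axis), for all tested probe sets, receptor probe sets and both classes of members. No mitosis member exceeded 2.5, while Pcna carried the replication curve to 5.96.

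Among the replication members, Pcna stood apart. Pcna (probe set 17391971, chromosome 2) was at 5.71 and 6.06 in males 1 and 2 and at 6.00 and 6.08 in females 1 and 2. All 4 arrays placed it between the 93rd and the 94.6th percentile of all probe sets, and the sexes overlapped. Its difference, female minus male, was 0.15 (SE 0.18), less than its 95% interval of -0.34 to 0.65 could tell from 0.

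The MCM genes encode the 6 subunits of 1 helicase ring, and their signals were not alike. Mcm6 (probe set 17226550, chromosome 1) was at 3.67, 3.44, 3.36 and 3.53 in male 1, male 2, female 1 and female 2. Mcm4 was at 2.67, 2.68, 2.74 and 2.67 in the same order, above every array's median by a small margin and below every receptor mark. These were the only MCM members above the median on all 4 arrays.

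Mcm2 lay above the median in the male arrays (2.56 and 2.47) and below it in the female arrays (2.42 and 2.34). Mcm3 was at 2.29 and 2.48 in males and 2.30 and 2.63 in females, above the median in the second array of each sex. Mcm7 was at 2.25 and 1.68 in males and 2.03 and 2.10 in females. Mcm5 lay lowest of the 6, between 1.64 in female 2 and 1.90 in female 1. Mcm5 and Mcm7 were thus under the median on every array, although the proteins work as 1 ring with the others. No level of one probe set can be set against another in transcript number, so these values give the detection of each probe set and not the make-up of the ring.

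Of the nucleotide supply enzymes, Rrm1, the large subunit of ribonucleotide reductase, was at 2.96 and 3.80 in males and 2.84 and 2.47 in females. Male 2 was the highest array and female 2 the lowest, where Rrm1 lay barely above the median of 2.461. Tyms, thymidylate synthase, was at 2.58 and 3.38 in males and 2.23 and 3.07 in females. In both sexes the second array was the higher by more than the sexes differed, and female 1 lay below its median.

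Rrm2 encodes the small subunit of the reductase, the one that is made and destroyed with the cell cycle. Its brighter probe set (17547690, chromosome 12) was at 2.13 and 2.25 in males and 2.83 and 2.88 in females. Both female arrays lay above the median and both male arrays below it, with no overlap. Its other probe set (17274540) was at 1.86 and 1.93 in males and 2.03 and 1.82 in females, below the median throughout. Ccne1, cyclin E1, which opens S phase, was at 2.62 and 2.49 in males and 2.23 and 2.36 in females, above the median in males alone.

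Among the mitosis members, the marker of proliferation and the chromosome proteins came first. Mki67 encodes Ki-67, which coats mitotic chromosomes and marks cycling cells in pathology. Mki67 (probe set 17497334, chromosome 7) was at 2.05 and 1.77 in males and 1.94 and 2.07 in females, at the 20.3rd to 34.9th percentile of the arrays. Top2a, the topoisomerase that untangles sister chromatids, was at 1.95 and 1.81 in males and 1.79 and 1.69 in females. Cenpa, the histone variant that marks centromeres, was at 2.43 and 2.08 in males and 2.69 and 2.39 in females, above the median in female 1 alone.

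The cyclins and kinases that drive entry into mitosis were low as well. Ccna2, cyclin A2, had the lowest mean of the members, with 1.67 and 1.72 in males and 1.52 and 1.61 in females. Cdk1, the kinase that cyclins A and B activate, was at 2.18 and 1.67 in males and 1.71 and 2.13 in females. The spread within each sex was wider than the difference between the sexes. Ccnb2, cyclin B2, was at 2.24 and 2.11 in males and 2.28 and 2.65 in females, and passed the median in female 2 alone. Foxm1, the factor that activates late cell cycle genes, ran from 1.74 in female 1 to 2.05 in male 1, and Plk1, a kinase of spindle assembly, from 2.05 in male 1 to 2.38 in male 2.

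The spindle and checkpoint members gave the same picture. Aurkb and Birc5 encode 2 partners of the chromosomal passenger complex, which corrects faulty attachments to the spindle. Aurkb was at 1.77 and 1.58 in males and 1.47 and 1.86 in females. Birc5 was at 2.09 and 1.86 in males and 1.63 and 1.84 in females. Both were under the median on all arrays.

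Aurka, a centrosome kinase, was at 2.24 and 2.20 in males and 2.40 and 2.54 in females. Tpx2, which activates Aurka on the spindle, ran from 1.84 to 2.05 over the 4 arrays. The motor genes Kif11, which pushes spindle poles apart, and Kif20a, which acts in cytokinesis, ran from 1.69 to 1.84 and from 1.84 to 2.12. The kinetochore motor gene Cenpe ran from 1.78 to 2.13.

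The checkpoint kinase gene Bub1 ran from 1.47 to 1.84, and its relative Bub1b from 1.80 to 2.18. None of these 7 genes except Aurka, in female 2, exceeded an array's median. Cdc20 and Ube2c act in the anaphase-promoting complex system that ends mitosis, the first as its activator and the second as its ubiquitin-conjugating enzyme. Cdc20 was at 2.31 and 2.45 in males and 2.38 and 2.67 in females, and Ube2c at 2.26 and 2.66 in males and 2.34 and 2.25 in females. Each exceeded the median on 1 array, female 2 for Cdc20 and male 2 for Ube2c.

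Counted by array, the mitosis members above the median were 0 in male 1, 1 in male 2, 1 in female 1 and 3 in female 2. Replication members above the median were 7, 8, 5 and 7 in the same order. The median level of the mitosis class was between 1.85 and 2.05 on the 4 arrays, and that of the replication class between 2.42 and 2.63. The order of the 2 classes was therefore the same on each array. As each array holds the same probe sets, this repeat does not separate the classes from how their probe sets bind.

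**Figure D3:**
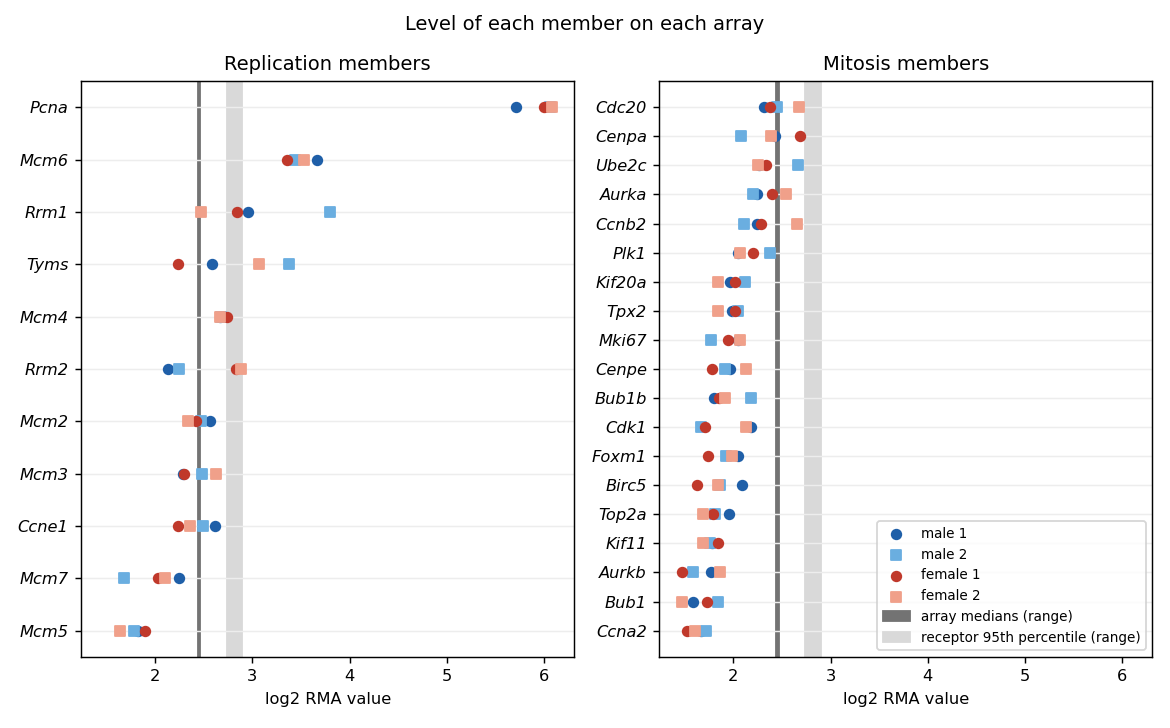
Log2 RMA value (horizontal axis) of the 30 measured members on each array, with males in blue, females in red, the first array of a sex as circles and the second as squares. The dark band is the range of the array medians and the light band that of the 95th percentile of receptor probe sets. Pcna and Mcm6 lie right of both bands on every array, and no mitosis member lies right of the dark band on more than 1 array.

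The sexes were then compared for each member with limma, fitted over all 23521 probe sets. Among the members 0 of 30 passed an adjusted p of 0.05, as did 0 (0%) of all probe sets. Their adjusted p-values ran from 0.969 to 1. Xist, the X-linked gene used below to check the labels, differed by 5.47 and had an adjusted p of 0.772 by limma. With 2 arrays per sex, a lack of calls therefore does not show that the sexes are alike. The same limit holds for the calls among pathway genes and under the alternatives. At an unadjusted p under 0.05 there was 1 member, Rrm2, where 4.49% of all probe sets met that mark, 2.64% toward females and 1.85% toward males. The sexes did not overlap for 9 of 30 members, 3 higher in females and 6 higher in males, beside 33.3% of all probe sets (15.8% and 17.5%). These shares are near the background and say nothing particular of the members.

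The brighter Rrm2 probe set differed by 0.66 (SE 0.15, 95% interval 0.27 to 1.05), a fold of 1.58 toward females in 2 of 2 female arrays, with an adjusted p of 0.969 by limma. The male mean, 2.19, lay below every array's median, and the other probe set differed by 0.03 (SE 0.16). Rrm1 differed by -0.72 (SE 0.34, 95% interval -1.63 to 0.19), toward males; it was -1.14 without male 1 and -0.30 without male 2. Both subunits belong to 1 enzyme, and their measured differences had opposite signs. They were the only members with an absolute difference over 0.5, which 10% of all probe sets exceeded, and no member exceeded 1.

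Of the other replication members, Tyms differed by -0.33 (SE 0.41) and Ccne1 by -0.26 (SE 0.15). The MCM genes ran from -0.14 (Mcm2) to 0.10 (Mcm7). The class had a median difference of -0.03, with 5 of 11 higher in females. The median over all probe sets was -0.00623.

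Of the mitosis members, Ccnb2 (0.29, SE 0.19), Cenpa (0.28, SE 0.21) and Aurka (0.25, SE 0.15) had the widest differences toward females. Single arrays moved these values: Ccnb2 was at 0.11 without female 2 and 0.48 without female 1, and Cenpa at 0.11 without male 2, 0.13 without female 1 and 0.46 without male 1. Birc5 (-0.24, SE 0.17) and Ube2c (-0.16, SE 0.20) had the widest toward males. Mki67 differed by 0.09 (SE 0.17, 95% interval -0.37 to 0.56). The median of the class was -0.08: 12 of 19 were lower in females, 6 higher and 1 at 0.00. Since 14 of the 19 lay below the median on every array, no direction is read from this count. The median absolute difference over the 30 members was 0.11, beside 0.15 for all probe sets.

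**Figure D4:**
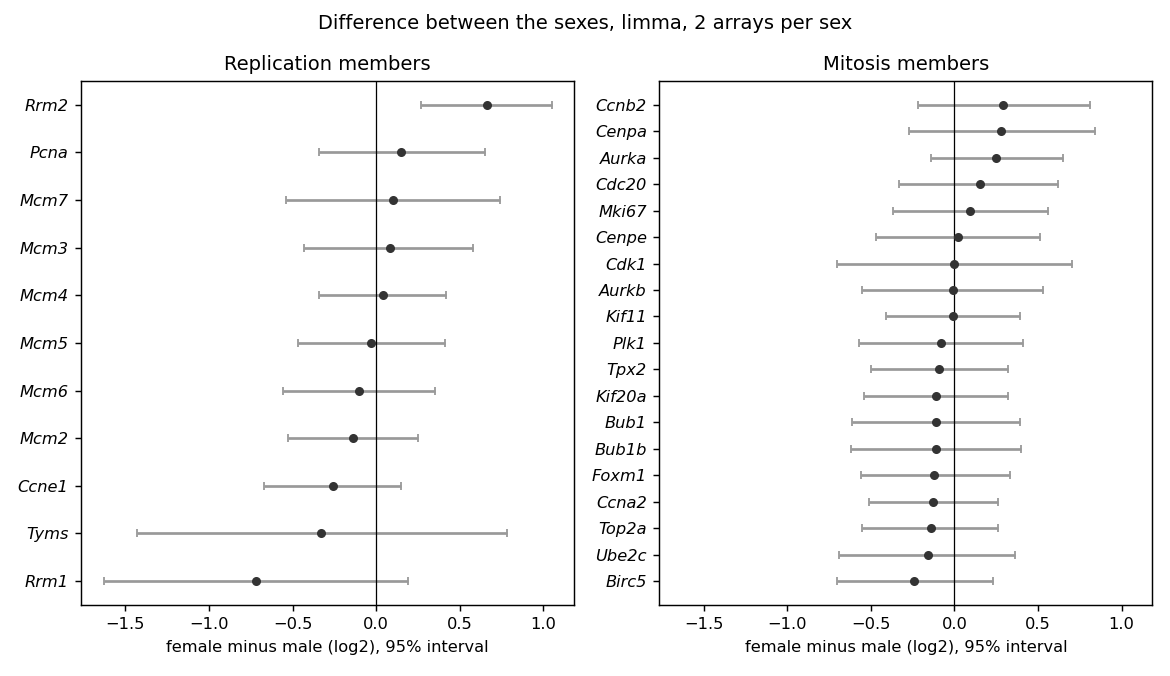
Difference between the sexes (female minus male, log2 scale, horizontal axis) for each measured member, with points for the limma estimate over 2 arrays per sex and bars for the 95% interval. The interval of Rrm2 (0.27 to 1.05) is the only one that does not include 0, and it is not adjusted for the number of probe sets tested.

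Further genes of the same pathways were counted from 7 lists, with 132 of 137 genes measured. By limma 0 of the 132 passed an adjusted p of 0.05, and 6 had an unadjusted p under 0.05, near the 4.49% of all probe sets. The shares above every array's median differed between the lists, and are given beside the 41.6% of all probe sets. Origin licensing and firing had 8 of 17, DNA synthesis and nucleotide supply 12 of 24, and E2F, pocket protein and B-Myb regulators 10 of 19. Condensin, cohesin and separase had 6 of 13, and mitotic entry and the anaphase-promoting complex 11 of 21. Kinetochore and spindle checkpoint genes had 4 of 18, and spindle motors and cytokinesis genes 2 of 20.

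The kinetochore and the spindle list had the smallest shares, with median levels of 1.82 and 1.85. The list of mitotic entry and the anaphase-promoting complex, which is also mitotic, had one of the larger shares, and no difference between lists was tested. In the kinetochore list the 4 were Bub3, Mad1l1, Cenpm and Zwint. Bub3, a checkpoint protein, was at 3.44 and 3.84 in males and 4.38 and 4.54 in females, a difference of 0.82 (SE 0.20), and Mad1l1 differed by 0.43 (SE 0.18). Bub3 is a partner of Bub1 and Bub1b, which were below the median on every array.

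In the spindle list the 2 were Ckap5, a microtubule polymerase used in interphase too, at 0.49 (SE 0.25), and Kif22, a chromosome-arm motor gene, at -0.07 (SE 0.16). The cohesin subunits Smc3 and Smc1a, which also hold chromatin loops in resting cells, lay above the median, and Smc3 differed by 0.86 (SE 0.67). Pttg1, which encodes securin, differed by 0.58 (SE 0.37). Of the anaphase-promoting complex, Cdc26 differed by 0.61 (SE 0.39) and Cdc23 by 0.52 (SE 0.24). All of these had adjusted p-values of 0.969 or more by limma.

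Among the replication lists, the origin recognition genes Orc6 and Orc3 differed by -0.77 (SE 0.51) and 0.72 (SE 0.37). Rpa1 and Rpa3, subunits of the protein that coats single-stranded DNA, differed by 1.06 (SE 0.61) and 0.42 (SE 0.18). Each has 2 probe sets, and only the one of highest mean is given. Rpa1 was at 3.02 and 4.12 in males and 5.33 and 3.94 in females, so the sexes overlapped and female 1 was highest. Of the regulators above the median, Tfdp1, the E2F partner gene, had the widest difference, -1.37 (SE 1.03), but it was at 7.53 in male 1 and between 4.30 and 5.10 elsewhere. E2f3 was at 3.72 and 3.83 in males and 2.82 and 2.98 in females, a difference of -0.87 (SE 0.16) with an unadjusted p of 0.00362 and an adjusted p of 0.969 by limma. E2f4, E2f5 and E2f6 also lay above every array's median, while E2f1, E2f2, E2f7 and E2f8 lay below every one, as Foxm1 did.

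**Figure D5:**
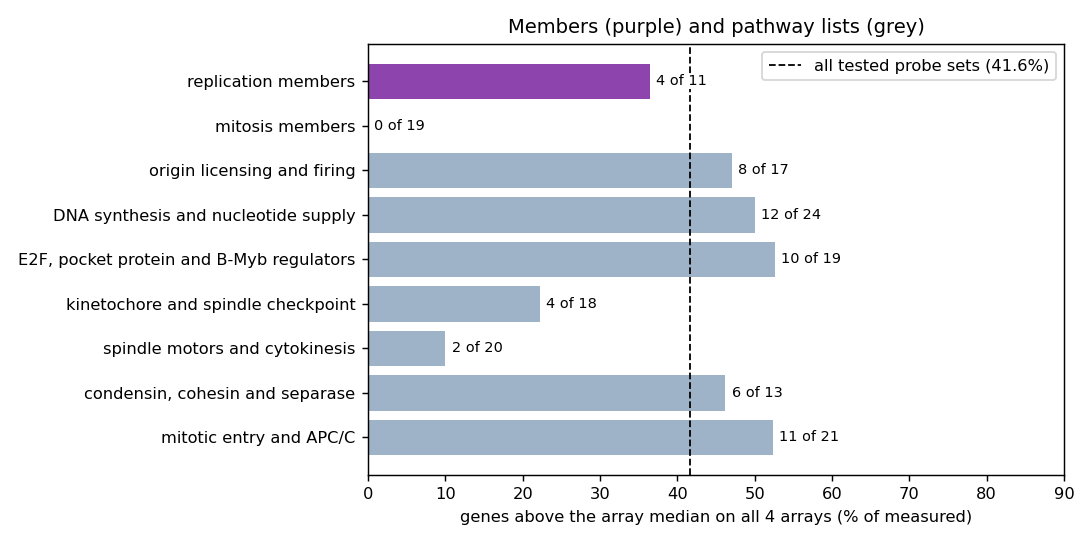
Share of measured genes above the array median on all 4 arrays (%, horizontal axis) for both classes of members (purple) and 7 pathway lists (grey), with counts beside the bars and the share of all tested probe sets as a dashed line. Mitosis members (0 of 19), spindle motors (2 of 20) and kinetochore genes (4 of 18) lie left of the line, and replication members (4 of 11) lie near it.

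The tissue was checked with marker lists. Of 10 tendon markers 8 lay above every array's median, but Mkx and Tnc did not. All 12 skeletal muscle markers lay there too, with list medians from 9.13 to 10.10, beside 6.47 to 7.41 for the tendon markers. Muscle genes thus gave strong signal on all 4 arrays, and the part of muscle RNA in the members' levels was not tested. Above every array's median were also 11 of 12 macrophage and 7 of 8 endothelial markers. The summed log2 level of the 8 endothelial markers was 29.3 in male 1. It was 35.4 in male 2, 34.3 in female 1 and 36.7 in female 2. The part of endothelial cells in the members' values was not tested. Lymphocyte markers were at 1 of 9, and the satellite cell markers at 3 of 5. Keratinocyte markers were at 4 of 7, and 6 of the 7 were lower in females, with a median difference of -0.21. Of 6 erythroid markers only 2 were measured, and 1 lay above every array's median. The summed log2 level of the 12 macrophage markers was 61.9 in female 2 and between 50.4 and 51.0 elsewhere, and that of the muscle markers was 108.2 in female 2 and between 116.9 and 118.3 elsewhere. Myh4, Actn3 and Pygm were the muscle markers lowest in female 2 against the rest (7.35, 6.68 and 7.57, beside 9.17 or more elsewhere), while Myh1, Myh2 and Myh7 were higher there than in male 1. Of the adipocyte markers 7 of 8 had a higher female mean, with a median difference of 0.74 and 0 called by limma. Their summed level was 36.3 and 41.4 in males and 44.1 and 46.6 in females, with Plin4 at 1.59, Cidec at 1.57 and Pparg at 1.43; their part in the sex comparison of the members was not tested. Female 2 was the array with most mitosis members above the median, 3 against 0 or 1; the part of these other cells in that count was not tested. Xist was at 2.47 and 1.98 in males and 7.34 and 8.04 in females, and the Y-linked Eif2s3y at 4.46 and 4.96 in males and 2.86 and 1.65 in females. Neither gene overlapped between the sexes, in the direction of the labels, although Eif2s3y in female 1 lay above both that array's median and its receptor mark of 2.769.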

How the data were processed

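The authors deposited log2 values, with a column for each array. The tools oligo and RMA are named in the submitters' processing notes; their versions, the probe summary level and the genome build are not given in the sources used here. RNA (12.5 ng) was amplified before labelling, per the labels' protocols. That the scale is log2 was read from RMA and the range of 0.517 to 11.9.

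Of 41345 rows, GEO's platform annotation gave 1 symbol to 23521, several to 1814 and none to 16010. Per gene, the probe set of highest mean was used. Groups were compared with limma 3.58.1 in R 4.3.3 (sex as the only term, Benjamini-Hochberg over all 23521), since an exact permutation test of 2 against 2 cannot go below p = 0.333. The procedure was run on simulated data, to check that the median estimate recovered a planted difference. That check set no requirement on the calls. Precision is limited by the number of arrays; over the members the median SE was 0.17. Of the fixed lists' symbols 2 were updated through RefSeq synonyms. Members, lists and the rule for named genes (all members; per pathway list up to 2 of widest difference above every array's median) were chosen with earlier results of these data known. Further pathway genes named as examples were chosen after their values were seen. Alternatives changed the background mark, the probe sets, the normalization, the prior, the weights, the block and the arrays. Plots used matplotlib 3.10.9 (Python 3.11.15).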

Additional observations from a re-analysis of the deposited data

How the results depend on the processing

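No member and no pathway gene was called under any of the alternatives, which counted 0 of each; at an unadjusted p under 0.05 there were 0 to 2 members and 4 to 15 pathway genes, beside 3.55% to 6.42% of all probe sets in the same fits; the 15 of 132 were without male 2, where 6.42% of all probe sets met that mark, and without female 2 there were 11, beside 4.52%. The fit on probe sets above the median level held only 6 of the 30 members, and not all pathway genes. It gave the 4 pathway genes at the low end of that range. Against the 75th percentile of each array, 1 member was above on all arrays (1 replication, Pcna) and 25 pathway genes were. Against the median there were 4 members, 4 of them replication genes, and 53 pathway genes. Against the 95th percentile of receptor probe sets 2 members were above, both replication genes. Against the median of all rows 1 mitosis member was above, beside 0. Leaving out each array gave 4 to 5 members. Median differences stayed within the spread of the arrays under each alternative run; no mitosis member lay above every median, so for that class the alternative on such members alone could not be run. Signs of small, uncalled differences turned after quantile normalization once more for Mcm5 (0.01), Aurkb (0.03) and Kif11 (0.03), and after centring for Aurkb (0.00) and Kif11 (0.00); the cause was not tested. Leaving out each array also turned signs, with ranges of -0.02 to 0.33 for Pcna, -0.09 to 0.24 for Mcm3, -0.22 to 0.01 for Mcm6, -0.20 to 0.19 for Aurkb, -0.08 to 0.07 for Kif11, -0.18 to 0.39 for Mcm7, -0.75 to 0.09 for Tyms, -0.04 to 0.23 for Mki67, -0.26 to 0.26 for Cdk1, -0.24 to 0.02 for Bub1, -0.30 to 0.08 for Bub1b, -0.24 to 0.08 for Plk1, -0.16 to 0.19 for Cenpe, -0.36 to 0.03 for Ube2c, -0.24 to 0.00 for Foxm1 and -0.16 to 0.10 for Mcm5. Without a turn of sign, the ranges were -1.14 to -0.30 for Rrm1 (unadjusted p = 0.018 by limma without male 1), 0.60 to 0.72 for Rrm2, 0.11 to 0.48 for Ccnb2, 0.11 to 0.46 for Cenpa, 0.18 to 0.32 for Aurka and -0.35 to -0.12 for Birc5. The lone array of a sex is there assumed to vary like the other sex. The replicate numbers are shared by the sexes, but deviations of same-numbered arrays correlated at -0.0639, so the numbers were not taken to pair them; with the replicate block 0 members were called and 1 had an unadjusted p under 0.05.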

Other observations

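Probe sets that the annotation gives to a member together with another gene were not used, since their signal cannot be attributed, but several lay far from the member's own probe set. The probe set shared by Tyms and the pseudogene Tyms-ps was at 4.74 and 4.27 in males and 3.92 and 4.17 in females, above the median on 4 of 4 arrays. Of 2 probe sets shared by Top2a and Taf1d, one was at 3.83, 6.36, 4.47 and 3.60 in male 1, male 2, female 1 and female 2, and the other at 2.98, 4.65, 3.25 and 2.68. Both were highest in male 2, while the probe set given to Top2a alone was at 1.81 there.

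The microRNA Mir25 shares a probe set with Mcm7, which was at 3.64 and 3.19 in males and 3.20 and 3.42 in females, above the median on 4 of 4 arrays. That of Mir93 and Mcm7 was at 2.39 and 2.17 in males and 1.93 in both females, below every median, as was the probe set of Mcm7 alone. The probe set of Ccne2 and Ints8 was at 2.11 and 1.83 in males and 2.08 and 2.17 in females, also below every median.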
